A study of Mus musculus with 90 samples.

Results

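The genes described here are 8 genes of gluconeogenesis, the synthesis of glucose from lactate, amino acids and glycerol: Pcx, Pck1, Fbp1, G6pc, Slc37a4, Ppargc1a, Crtc2 and Sik1. They were chosen by symbol, and their read counts were taken from 4 tables of mouse liver that list 27654 genes. All 8 were found, and all 8 passed the filter on low counts in each of the comparisons below. In liver, gluconeogenesis supplies the blood with glucose between meals, and insulin after a meal holds it back. Glucagon, acting through cyclic AMP, and glucocorticoids, acting through the glucocorticoid receptor (GR, encoded by Nr3c1), raise transcription of its enzymes. The members fall into enzymes with their transporter, and regulators that act on the transcription of those enzymes.

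The study compared liver of mice under caloric restriction (cal. res.) and under control feeding (ctrl.), with and without GR in hepatocytes, across the day, with RNA sequencing of 90 libraries in 28 groups. Time is given as zeitgeber time (ZT), in hours after lights on, and all mice were male C57BL/6J. In the time series, WT mice carried the allele GRfl/fl without Cre, and GR LKO mice carried GRfl/fl together with Alb-Cre, which drives Cre in hepatocytes, so that other liver cells keep GR. Both genotypes were sampled at 6 time points, ZT0 to ZT20 in steps of 4 h, under both diets. Cal. res. mice had 3 libraries per group, 36 in all, and ctrl. mice had 3 or 4 per group, 42 in all. Mice under cal. res. received 40% less calories, with the food given at ZT12, and ctrl. mice had free access to food until the final 7 days, when it was limited to the night. The separate diet experiment held 3 ctrl. and 3 cal. res. mice, all labelled WT and all taken at ZT12. Its ctrl. group is titled AL but labelled Night Restricted Feeding (NR), and the methods describe free access to food in the dark phase. The corticosterone experiment held 3 NR mice and 3 mice with daily corticosterone for 7 days at 5 mg per kg, labelled WT, at ZT12. By the methods its NR mice received vehicle. Per the paper the mice entered either experiment at 12 weeks of age, and those for corticosterone were first adapted to handling for 2 weeks. Restriction was stepped over 4 weeks and held for 4 more by the main text or 3 more by the methods, and the animals were reported as 20 to 21 weeks old.

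The total count per library ran from 14235473 to 20788575 in the cal. res. time series and from 10057544 to 17089004 in the ctrl. time series. It ran from 36442195 to 39492146 in the diet experiment and from 13739631 to 16077943 in the corticosterone experiment. Levels are given as CPM, counts scaled to a common library size within an experiment. A gene was called changed at an edgeR adjusted p under 0.05, adjusted over all genes tested. Overlap of mice between groups is described gene by gene, and the share of all genes without overlap is not given. Where leaving out 1 mouse ended a call, the mouse is named, with the edgeR adjusted p without it in parentheses, and the span of adjusted p over the alternatives run, or over the fits without 1 library, follows. The cal. res. and ctrl. libraries of the time series come from different tables with different series of library numbers, so diet and library series cannot be told apart there. Diet was therefore tested in the diet experiment, and the time series was used for genotype, for time and for the interaction of genotype with diet.

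Nr3c1 was read first as a check of the genotype labels. In the time series it lay between 16.1 and 32.0 CPM in the 38 GR LKO libraries, with a median of 23.8, and between 70.5 and 118 CPM in the 40 WT libraries, with a median of 89.0. Every library thus fell on the side of its label, with no overlap. Nr3c1 did not pass the test in the diet experiment, at a log2 fold change of -0.08 ± 0.06 (SE, edgeR adjusted p = 0.317), or in the corticosterone experiment, at -0.06 ± 0.13 (SE, edgeR adjusted p = 0.808).

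The liver label was checked against marker genes. Of 7 hepatocyte markers 6 were in the tables, all above 1 CPM in the median library, and their summed level ran from 65306 to 167650 CPM, with albumin (Alb) the most abundant at a median of 74447 CPM. Kupffer and other myeloid markers, all 8 in the tables, summed to between 50.4 and 349 CPM. Endothelial markers, all 6, summed to between 74.2 and 237 CPM, and stellate cell markers, all 6, to between 89.4 and 487 CPM. Their most abundant genes were Cd5l, with a median of 31.2 CPM, Clec4g, with 42.6 CPM, and Dcn, with 120 CPM. The 5 cholangiocyte markers summed to between 22.8 and 149 CPM, led by Spp1 with a median of 36 CPM, and Epcam had a median of 0. The 6 erythrocyte markers summed to a median of 529 CPM and reached 3866 CPM in GR LKO replicate 2 of cal. res. at ZT0, where Hbb-bs was highest at 2086 CPM. Among the 8 adipocyte markers Car3 carried the list with a median of 3123 CPM, Plin1 was at 0 in every library, and Adipoq, Lep and Retn had medians of 0. The sum of the other 7 was at most 88.7 CPM. Neutrophil, lymphocyte and kidney tubule markers, with 5, 6 and 6 genes, summed to at most 3.82, 6.66 and 0.0750 CPM, where the most abundant genes by their highest value were S100a9, Cd79a and Slc12a1, and the kidney markers Umod and Cdh16 were at 0 throughout. In bulk liver, fewer cells of a type and less RNA per cell cannot be told apart.

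RNA of exocrine pancreas, from a list of 10 genes, stood out in 2 libraries. Its summed level was 1322 CPM in WT replicate 3 of cal. res. at ZT12 and 815 CPM in WT replicate 2 of ctrl. at ZT16, with Amy2a5 the most abundant gene at 431 and 351 CPM. The next highest library had 4.90 CPM, and Amy2a5 had a median of 0. The counts of members called in tests that use either library are given below with and without it.

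Compared per kilobase of their principal transcript over the 78 libraries of the time series, the members spanned a wide range. Fbp1, which encodes the phosphatase that makes fructose 6-phosphate, had the highest median level at 745 CPM per kb, with a range of 525 to 1242. Pck1, the cytosolic enzyme that makes phosphoenolpyruvate from oxaloacetate, followed with a median of 385 CPM per kb and a range of 51.6 to 2941. G6pc, the catalytic subunit of glucose 6-phosphatase, had a median of 105 CPM per kb and ranged from 6.87 to 704. Slc37a4, the transporter that brings glucose 6-phosphate into the endoplasmic reticulum, had a median of 51.2 CPM per kb. Pcx, the mitochondrial enzyme that makes oxaloacetate from pyruvate, had a median of 16.3 CPM per kb. The regulators were lower: Crtc2, a coactivator of CREB, had 13.0, Sik1, a kinase that phosphorylates coactivators of the Crtc family, 4.75, and Ppargc1a, which encodes the coactivator PGC-1α, 1.76 CPM per kb. The ranges of neighbours in this order overlapped throughout, and the order pools diets, genotypes and times. At ZT12 the group mean of Pck1 per kb was above that of Fbp1 in all 4 series, at 2804 against 802 CPM per kb in WT under cal. res.

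**Figure D1:**
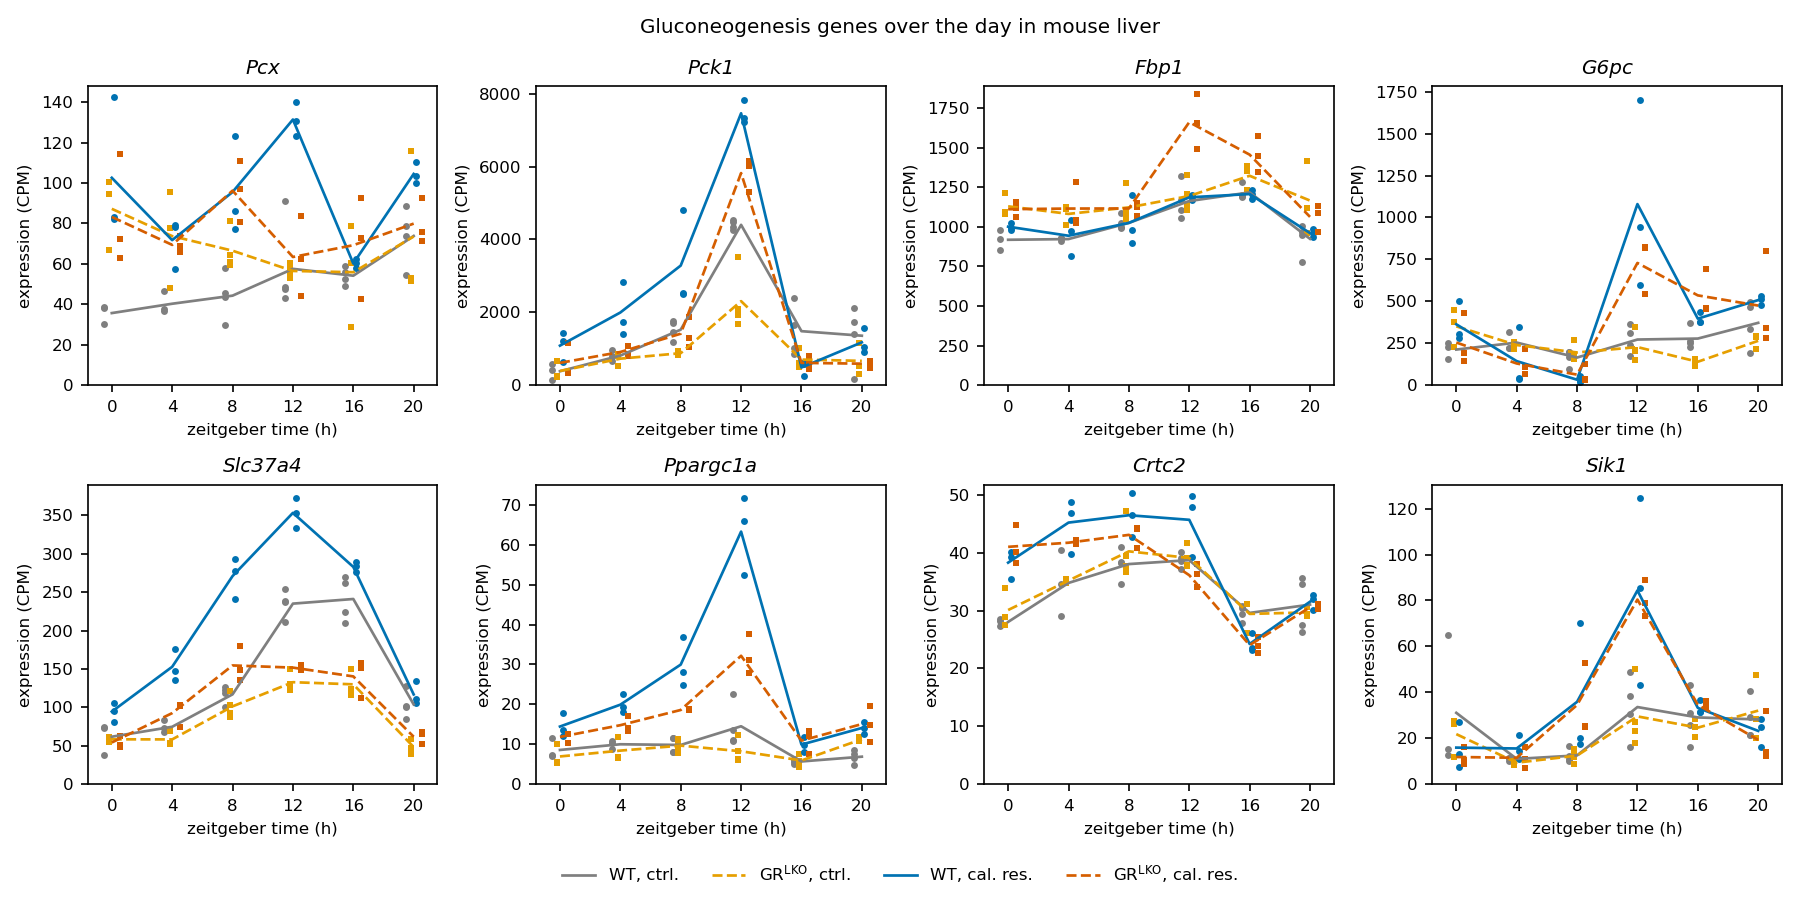
CPM of the 8 members against zeitgeber time in hours, with 1 point per mouse and lines through the group means, for both genotypes and both diets. Pck1 had its highest group mean at ZT12 in all 4 series, from 2304 in GR LKO under ctrl. to 7461 CPM in WT under cal. res.

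Over the day Pck1 moved most widely of the members in ctrl. mice. In WT under cal. res. its group mean was highest at ZT12, at 7461 ± 319 CPM (SD, n = 3), and lowest at ZT16, at 483 ± 216 CPM (SD, n = 3), a ratio of 15.4. The ratio of highest to lowest group mean was 9.90 in GR LKO under cal. res., 11.6 in WT under ctrl. and 5.94 in GR LKO under ctrl. G6pc had its own course: under cal. res. its mean was lowest at ZT8, at 32.0 ± 18.8 CPM in WT (SD, n = 3), and highest at ZT12, at 1079.7 ± 564 CPM in WT (SD, n = 3). That was a ratio of 33.8 in WT and of 11.7 in GR LKO. Under ctrl. the G6pc ratio was 2.26 in WT and 2.52 in GR LKO.

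For the other members the ratio of highest to lowest group mean lay between 1.22 and 7.01. Ppargc1a was highest at ZT12 and lowest at ZT16 in WT under both diets, with a ratio of 6.39 under cal. res. and 2.55 under ctrl. Slc37a4 means ran from 94.4 to 353 CPM in WT under cal. res. and from 54.2 to 155 in GR LKO under cal. res. Sik1 means ran from 15.5 CPM at ZT4 to 84.3 CPM at ZT12 in WT under cal. res. Fbp1 varied little over the day, with ratios between 1.22 in GR LKO under ctrl. and 1.56 in GR LKO under cal. res. For Pcx the time of the highest mean differed among the 4 series, being ZT12 in WT and ZT8 in GR LKO under cal. res., and ZT20 in WT and ZT0 in GR LKO under ctrl.

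The diet experiment asked how cal. res. differs from ctrl. feeding in WT liver at ZT12. Of the 8 members 6 rose and 0 fell, in a comparison where 47.1% of the 13062 genes tested were called, so many genes outside gluconeogenesis changed too. The median log2 fold change of the members was 0.85, against -0.00 over all genes tested. Among the enzymes, Pck1 measured 3314, 2897 and 3869.6 CPM in the ctrl. mice and 8877, 8742 and 9634 CPM in the cal. res. mice. All cal. res. mice lay above all ctrl. mice. Its log2 fold change was 1.43 ± 0.12 (SE, edgeR adjusted p = 2.4e-04), 2.70-fold with n = 3 per group. G6pc, the last enzyme of the pathway, measured 473, 609 and 552 CPM under ctrl. and 1199, 1051 and 1538 CPM under cal. res. The groups again did not overlap, and the log2 fold change was 1.21 ± 0.16 (SE, edgeR adjusted p = 0.00124).

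Slc37a4 and Crtc2 rose by less. The transporter Slc37a4 measured 229, 239.6 and 192 CPM in ctrl. and 365, 314 and 255 CPM in cal. res. mice. The lowest cal. res. value lay just above the highest ctrl. value, and the log2 fold change was 0.50 ± 0.15 (SE, edgeR adjusted p = 0.0266). Slc37a4 lost this call without ctrl. replicate 1 (0.0639), ctrl. replicate 3 (0.0817), cal. res. replicate 1 (0.0522) and cal. res. replicate 2 (0.0705), and its p lay between 0.00161 and 0.0817 over 11 alternatives. Crtc2 measured 36.1, 32.6 and 34.9 CPM in ctrl. and 39.1, 42.8 and 44.2 CPM in cal. res. mice, without overlap. Its log2 fold change was 0.28 ± 0.08 (SE, edgeR adjusted p = 0.0204). Crtc2 lost this call without ctrl. replicate 2 (0.0797), ctrl. replicate 3 (0.0502), cal. res. replicate 2 (0.0661) and cal. res. replicate 3 (0.0530), and its p lay between 0.00836 and 0.0821 over 11 alternatives.

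Among the regulators, Ppargc1a measured 16.2, 17.3 and 16.9 CPM in ctrl. and 64.5, 57.2 and 72.2 CPM in cal. res. mice. The ctrl. mice lay close together, far below all cal. res. mice, and the log2 fold change was 1.94 ± 0.10 (SE, edgeR adjusted p = 6.4e-05), 3.84-fold. Sik1, itself a target gene of CREB, measured 27.5, 25.4 and 25.6 CPM in ctrl. and 88.2, 109 and 212 CPM in cal. res. mice. Here the cal. res. mice spread widely, with replicate 3 highest, and none came near the ctrl. mice. The log2 fold change of Sik1 was 2.38 ± 0.31 (SE, edgeR adjusted p = 0.00127). The remaining members were 2 enzymes. Fbp1 measured 1034, 1115 and 1127 CPM in ctrl. and 1152, 1098 and 1089 CPM in cal. res. mice, overlapping, with a log2 fold change of 0.02 ± 0.07 (SE, edgeR adjusted p = 0.802), and -0.01 to 0.05 on leaving out 1 mouse. Pcx measured 235, 327 and 175 CPM in ctrl. and 218, 173 and 137 CPM in cal. res. mice, also overlapping, with a log2 fold change of -0.48 ± 0.25 (SE, edgeR adjusted p = 0.149). Leaving out 1 mouse moved that value to between -0.68, without ctrl. replicate 3, and -0.22, without ctrl. replicate 2. In the WT libraries of the time series at ZT12, 1 of which held pancreas RNA, Pcx lay the other way, at 131 ± 8.42 CPM under cal. res. (SD, n = 3) and 57.5 ± 22.6 CPM under ctrl. (SD, n = 4), and with that fit included its p lay between 0.00740 and 0.459 over 11 alternatives. Of the 6 hepatocyte markers measured, Hnf4a, Alb and Cps1 were called higher under cal. res. in the diet experiment, and the others are not described. Of 8 Kupffer and myeloid markers 1 was called lower. The part of these markers in the members' values was not tested.

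**Figure D2:**
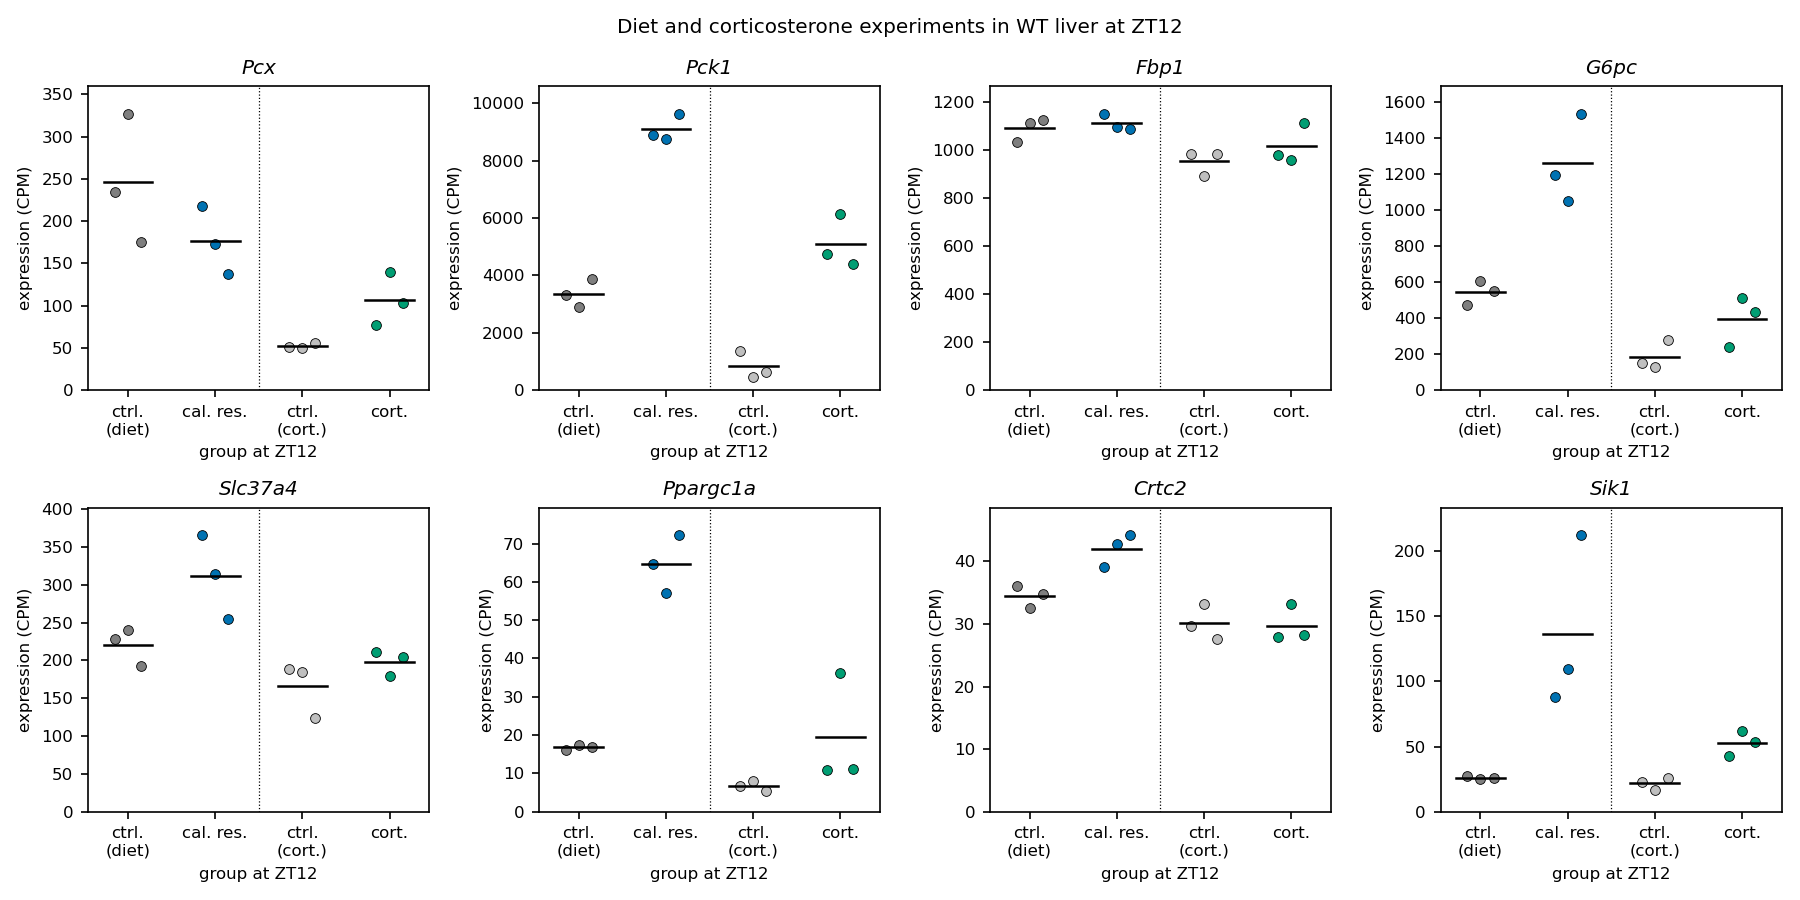
CPM of the 8 members in WT liver at ZT12, with 1 point per mouse and a line at the group mean (n = 3), for the diet experiment at left and the corticosterone experiment at right of the dotted line. Pck1 lay at 8877, 8742 and 9634 CPM under cal. res. and at 4729, 6130.3 and 4394 CPM with corticosterone, in each case above all ctrl. mice of the same experiment.

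The corticosterone experiment asked what added hormone does in WT mice on night feeding. Of the 8 members 3 rose and 0 fell, where 8.11% of the 11523 genes tested were called. An unadjusted p was under 0.05 for 5 members and 26.0% of all genes, and DESeq2 called 4 members and 11.6% of all genes. Pck1 measured 1365, 472 and 646 CPM in the ctrl. mice and 4729, 6130.3 and 4394 CPM in the corticosterone mice. All treated mice lay above all ctrl. mice, of which replicate 1 was highest. The log2 fold change was 2.62 ± 0.39 (SE, edgeR adjusted p = 0.0124), 6.14-fold with n = 3 per group. Pck1 lost this call without ctrl. replicate 3 (0.0503), and its p lay between 6.3e-06 and 0.0503 over 10 alternatives. Sik1 measured 23.1, 17.0 and 25.8 CPM in ctrl. and 42.8, 62.3 and 53.5 CPM in corticosterone mice. The groups did not overlap, and the log2 fold change was 1.27 ± 0.20 (SE, edgeR adjusted p = 0.0130). Sik1 lost this call without ctrl. replicate 2 (0.0501), and its p lay between 2.2e-07 and 0.0501 over 10 alternatives. Pcx measured 50.7, 50.2 and 56.2 CPM in ctrl. and 77.4, 140.3 and 103 CPM in corticosterone mice. The ctrl. values lay within a few CPM of each other, below all treated mice. The log2 fold change was 1.03 ± 0.21 (SE, edgeR adjusted p = 0.0276). Pcx lost this call without ctrl. replicate 1 (0.0942), ctrl. replicate 2 (0.115), ctrl. replicate 3 (0.0774) and corticosterone replicate 3 (0.0719), and its p lay between 4.5e-05 and 0.115 over 10 alternatives. Without ctrl. replicate 2 or without ctrl. replicate 3 the count of members called was 1, and the share of all genes called in those fits is not given.

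The other 5 members did not pass the test with corticosterone. Ppargc1a measured 6.69, 7.89 and 5.40 CPM in ctrl. and 10.8, 36.3 and 11.2 CPM in corticosterone mice. The groups did not overlap, but replicate 2 of the treated mice stood apart from the other treated mice, and the log2 fold change was 1.55 ± 0.49 (SE, edgeR adjusted p = 0.10). Without that mouse it was 0.71, and over the 6 fits without 1 library it ran from 0.71 to 1.84. G6pc measured 153, 127 and 281 CPM in ctrl. and 238, 514 and 433 CPM in corticosterone mice. The highest ctrl. mouse lay above the lowest treated mouse, and the log2 fold change was 1.08 ± 0.37 (SE, edgeR adjusted p = 0.121). Slc37a4, Fbp1 and Crtc2 had log2 fold changes of 0.26 ± 0.17 (SE, edgeR adjusted p = 0.383), 0.09 ± 0.10 (SE, edgeR adjusted p = 0.622) and -0.02 ± 0.12 (SE, edgeR adjusted p = 0.935). On leaving out 1 mouse these ran from 0.09 to 0.36, 0.03 to 0.13 and -0.12 to 0.05. The diet and the corticosterone experiment each had their own ctrl. group and were not tested against each other. Their ctrl. mice differed in level, with Pck1 at 3360.4 ± 488 CPM (SD, n = 3) in the former and 828 ± 474 CPM (SD, n = 3) in the latter. For Pcx these means were 246 ± 76.5 and 52.3 ± 3.34 CPM (SD, n = 3 each).

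The comparison of GR LKO with WT at each time point asked which members depend on hepatocyte GR. Across 6 time points and 8 members under cal. res., 8 of 48 tests passed, 7 lower and 1 higher in GR LKO. At ZT0 0.502% of all genes were called, and of the members edgeR called 0, while 2, and 13.2% of all genes, had an unadjusted p under 0.05 and DESeq2 called 1, with 3.30% of all genes. At ZT4 0.69% of all genes were called, and edgeR called 0 members, against 3 at an unadjusted p under 0.05 (14.6% of all genes) and 2 by DESeq2 (3.28%). At ZT8 2.55% of all genes and 1 member were called, at ZT12 15.3% and 5 members, at ZT16 4.54% and 1 member, and at ZT20 1.47% and 1 member. The member called at ZT8, ZT16 and ZT20 was Slc37a4.

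Slc37a4 was lower in GR LKO at each of the 6 time points under cal. res., without overlap between genotypes at any of them, with log2 fold changes from -1.22 to -0.72 and adjusted p from 3.0e-04 to 0.117. At ZT12 it measured 353, 334 and 373 CPM in WT against 151, 155 and 149 in GR LKO. Every WT mouse had more than any GR LKO mouse by a wide margin, and the log2 fold change was -1.22 ± 0.08 (SE, edgeR adjusted p = 3.0e-04), with n = 3 per genotype. At ZT16 the values were 289, 276 and 284 CPM in WT against 158, 151 and 112 in GR LKO, a log2 fold change of -1.0 ± 0.13 (SE, edgeR adjusted p = 0.00758). At ZT8 they were 294, 277 and 242 CPM in WT against 180.5, 135 and 148 in GR LKO, a log2 fold change of -0.81 ± 0.13 (SE, edgeR adjusted p = 0.0232). Slc37a4 lost this call without WT replicate 1 (0.0582), GR LKO replicate 2 (0.0872) and GR LKO replicate 3 (0.120), and its p lay between 1.4e-07 and 0.120 over 11 alternatives. At ZT20 Slc37a4 measured 105, 111 and 134 CPM in WT against 52.7, 65.2 and 67.2 in GR LKO, a log2 fold change of -0.90 ± 0.13 (SE, edgeR adjusted p = 0.0259). Slc37a4 lost this call without WT replicate 1 (0.0922), WT replicate 2 (0.0843), WT replicate 3 (0.109) and GR LKO replicate 2 (0.0660), and its p lay between 1.7e-07 and 0.109 over 11 alternatives. At ZT0 it measured 81.3, 106 and 95.6 CPM in WT against 48.6, 51.2 and 62.7 in GR LKO. The ZT0 difference did not pass, at a log2 fold change of -0.79 ± 0.13 (SE, edgeR adjusted p = 0.0654), nor did that at ZT4, at -0.72 ± 0.16 (SE, edgeR adjusted p = 0.117).

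**Figure D3:**
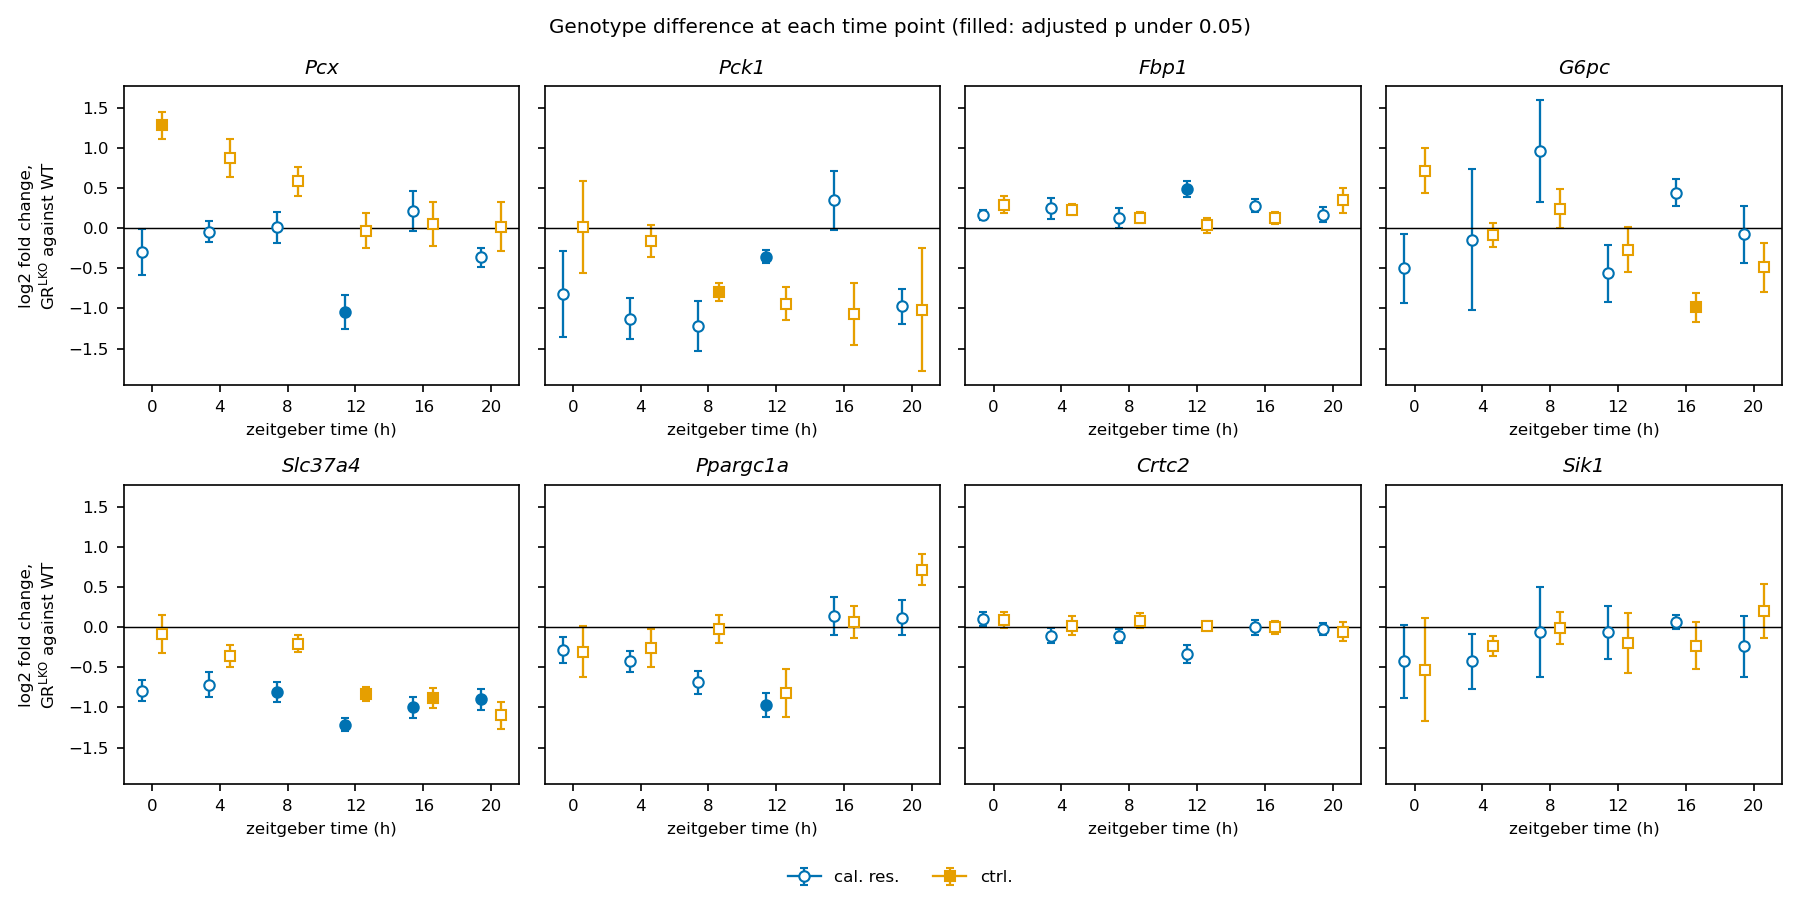
Log2 fold change of GR LKO against WT for the 8 members at each zeitgeber time in hours, with bars of 1 SE, under cal. res. (circles) and ctrl. (squares); filled symbols passed the edgeR test. Slc37a4 was below 0 at all 12 points, from -1.22 to -0.08.

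At ZT12 under cal. res., the time point when the food is given, 3 other enzymes were called. Pck1 measured 7235, 7323 and 7826 CPM in WT against 5291, 6027 and 6141 in GR LKO. All GR LKO mice were below all WT mice, by less than for Slc37a4, and the log2 fold change was -0.35 ± 0.08 (SE, edgeR adjusted p = 0.0312). That call did not hold in any of the 6 fits without 1 library, which left out WT replicate 1 (0.0556), WT replicate 2 (0.0612), WT replicate 3 (0.104), GR LKO replicate 1 (0.0816), GR LKO replicate 2 (0.0641) and GR LKO replicate 3 (0.0582), and its p lay between 8.8e-04 and 0.591 over 11 alternatives. Pcx measured 131, 140.3 and 124 CPM in WT against 44.1, 83.9 and 62.2 in GR LKO, without overlap. The log2 fold change of Pcx was -1.05 ± 0.21 (SE, edgeR adjusted p = 0.0183). Pcx lost this call without WT replicate 2 (0.0560) and GR LKO replicate 3 (0.0660), and its p lay between 7.6e-06 and 0.0660 over 11 alternatives. The gene model of Pcx shares bases with Lrfn4 on the other strand, and reads of the shared stretch were not separated here. The labels of all 90 libraries name a kit that does not mark the strand, while the paper also names a guide for a kit that does. Fbp1 moved the other way. It measured 1189, 1166 and 1203 CPM in WT against 1493, 1836 and 1653 in GR LKO, with every GR LKO mouse above every WT mouse. The log2 fold change was 0.49 ± 0.09 (SE, edgeR adjusted p = 0.0157). Fbp1 lost this call without WT replicate 2 (0.0506), WT replicate 3 (0.0563) and GR LKO replicate 3 (0.0510), and its p lay between 3.7e-06 and 0.0675 over 11 alternatives.

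Of the regulators at ZT12 under cal. res., Ppargc1a was called. It measured 52.4, 71.6 and 65.9 CPM in WT against 37.5, 27.8 and 31.2 in GR LKO. The genotypes did not overlap, and the log2 fold change was -0.97 ± 0.15 (SE, edgeR adjusted p = 0.00732). Crtc2 measured 49.9, 39.3 and 47.9 CPM in WT against 34.1, 38.0 and 36.3 in GR LKO. These did not overlap either, but the log2 fold change of -0.34 ± 0.11 (SE, edgeR adjusted p = 0.0824) missed the threshold. On leaving out 1 mouse it ran from -0.44 to -0.27, and the adjusted p of Crtc2 lay between 0.00575 and 0.204 over 11 alternatives. Sik1 measured 43.3, 124 and 85.4 CPM in WT against 78.7, 73.4 and 89.1 in GR LKO, where WT replicates 1 and 2 lay on either side of all GR LKO mice. Its log2 fold change was -0.06 ± 0.33 (SE, edgeR adjusted p = 0.915), and -0.38 to 0.32 on leaving out 1 mouse. G6pc measured 598, 1700.2 and 941 CPM in WT against 823, 544 and 819 in GR LKO, overlapping, with WT replicate 2 far above the rest and a log2 fold change of -0.56 ± 0.36 (SE, edgeR adjusted p = 0.331). Leaving out 1 mouse moved it to between -0.85 and -0.08.

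The WT group at ZT12 under cal. res. includes replicate 3, 1 of the 2 libraries with pancreas RNA. Without it 3 members and 8.59% of the 12008 genes tested were called. Pck1 then had a log2 fold change of -0.32 with an edgeR adjusted p of 0.104, and Fbp1 0.50 with 0.0563. Pcx, Ppargc1a and Slc37a4 passed without it, at -1.09, -0.95 and -1.18. The count of members was also 3 without WT replicate 2, but not the same 3, since Pcx lost its call there (0.0560). It was 2 without GR LKO replicate 3. Of the 6 hepatocyte markers measured, Hnf4a, Alb, Apoa1 and Cps1 were called lower in GR LKO in the same libraries, and the others are not described. Of 8 Kupffer and myeloid markers 4, Clec4f, Vsig4, Cd5l and Csf1r, were called higher. The part of these cell markers in the members' values was not tested.

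Away from ZT12 no enzyme was called between genotypes under cal. res. apart from the transporter. Pck1 measured 2537, 4804 and 2502 CPM in WT against 1878, 1058 and 1296 in GR LKO at ZT8, without overlap, and the log2 fold change was -1.22 ± 0.31 (SE, edgeR adjusted p = 0.104). At ZT4 it measured 1744, 1402 and 2831 CPM in WT against 799, 865 and 1060.2 in GR LKO, with a log2 fold change of -1.13 ± 0.26 (SE, edgeR adjusted p = 0.129). At ZT20 it measured 1562, 1037 and 921 CPM in WT against 624, 478 and 660.3 in GR LKO, with a log2 fold change of -0.97 ± 0.22 (SE, edgeR adjusted p = 0.0865). All 3 of these differences missed the threshold. No GR LKO mouse reached any WT mouse there, but the share of all genes without overlap is not given, so this is not read as a Pck1 difference. At ZT16 the genotypes overlapped, at 640.1, 572 and 237 CPM in WT against 592, 429.9 and 808 in GR LKO. G6pc had log2 fold changes between -0.56 and 0.96 under cal. res., with adjusted p of 0.213 or more. At its low point, ZT8, it measured 26.4, 53.0 and 16.6 CPM in WT against 125, 27.5 and 34.3 in GR LKO, with replicate 1 of GR LKO above all others. On the log2 scale the difference there ran from -0.05 to 1.54 on leaving out 1 mouse. Fbp1 had log2 fold changes above 0 at all 6 time points, from 0.12 to 0.49, and passed at ZT12. Sik1 and Crtc2 were not called at any time point, with log2 fold changes from -0.42 to 0.07 and from -0.34 to 0.11.

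Under ctrl. feeding 5 of 48 member tests passed, 4 lower and 1 higher in GR LKO. At ZT0 1 member and 0.536% of all genes were called, at ZT8 1 member and 1.43%, at ZT12 1 member and 2.08%, and at ZT16 2 members and 1.98%. At ZT4 0.195% of all genes were called, and edgeR called 0 members, against 3 at an unadjusted p under 0.05 (9.75% of all genes) and 2 by DESeq2 (1.45%). At ZT20 0.42% of all genes were called, and edgeR called 0 members, against 2 at an unadjusted p under 0.05 (11.3% of all genes) and 1 by DESeq2 (2.29%). Slc37a4 was again below WT at each of the 6 time points, with log2 fold changes from -1.10 to -0.08, the last of these, at ZT0, lying between -0.34 and 0.08 on leaving out 1 mouse. At ZT12 it measured 238, 238, 211 and 254 CPM in WT against 129, 130.5, 122 and 149 in GR LKO. No GR LKO mouse reached the lowest WT mouse, and the log2 fold change was -0.83 ± 0.09 (SE, edgeR adjusted p = 0.00198), with n = 4 per genotype. At ZT16 the values were 269, 224, 262 and 209 CPM in WT against 115, 124 and 150.1 in GR LKO. These did not overlap, with a log2 fold change of -0.88 ± 0.13 (SE, edgeR adjusted p = 0.0170). Slc37a4 lost this call without GR LKO replicate 1 (0.0607) and GR LKO replicate 2 (0.0760), and its p lay between 4.4e-09 and 0.0760 over 12 alternatives. At ZT20 Slc37a4 measured 128, 100.2, 102 and 85.1 CPM in WT against 38.6, 59.3 and 46.9 in GR LKO, also without overlap, and just missed the threshold at a log2 fold change of -1.10 ± 0.17 (SE, edgeR adjusted p = 0.0506).

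Pck1 was called at ZT8 under ctrl. It measured 1691, 1468, 1752 and 1175 CPM in WT against 934, 850.2, 884 and 835 in GR LKO. The 4 GR LKO mice lay close together below all 4 WT mice, and the log2 fold change was -0.79 ± 0.11 (SE, edgeR adjusted p = 0.0111). The call held in all 8 fits without 1 library but not in 1 fit of all libraries of the diet (0.749), and its p lay between 1.5e-09 and 0.749 over 13 alternatives. At ZT12 the 4 WT mice also lay close together, at 4263, 4349.8, 4520.0 and 4463 CPM, and the GR LKO mice were at 3528, 1934, 2089 and 1665 CPM. No GR LKO mouse reached the WT mice, replicate 1 came closest, and the log2 fold change was -0.94 ± 0.20 (SE, edgeR adjusted p = 0.0557). G6pc was called at ZT16, with 260.1, 368, 254 and 228 CPM in WT against 158, 117 and 143 in GR LKO. The genotypes did not overlap, and the log2 fold change was -0.99 ± 0.18 (SE, edgeR adjusted p = 0.0359). G6pc lost this call without WT replicate 1 (0.0603), WT replicate 3 (0.0535), GR LKO replicate 1 (0.0762), GR LKO replicate 2 (0.115) and GR LKO replicate 3 (0.104), and its p lay between 2.1e-06 and 0.145 over 12 alternatives. Without WT replicate 2 of ZT16, which held pancreas RNA, both members called at that time point passed, and 0.801% of all genes tested were called. Without GR LKO replicate 1 or 2 the count at ZT16 was 0, and without WT replicate 1, WT replicate 3 or GR LKO replicate 3 it was 1.

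Pcx was the 1 member called at ZT0 under ctrl., and it was higher in GR LKO. There it measured 30.2, 38.2 and 38.6 CPM in WT against 94.6, 100.3 and 66.8 in GR LKO, with all GR LKO mice above all WT mice. The log2 fold change was 1.28 ± 0.17 (SE, edgeR adjusted p = 0.0382). This call did not hold in any fit without 1 library, which left out WT replicate 1 (0.109), WT replicate 2 (0.128), WT replicate 3 (0.0520), GR LKO replicate 1 (0.167), GR LKO replicate 2 (0.106) and GR LKO replicate 3 (0.0769), and its p lay between 5.6e-09 and 0.167 over 11 alternatives. At ZT4 the log2 fold change of Pcx was 0.88 ± 0.24 (SE, edgeR adjusted p = 0.293), at ZT8 it was 0.59 ± 0.18 (SE, edgeR adjusted p = 0.211), and at ZT12 it was -0.03 ± 0.22 (SE, edgeR adjusted p = 0.980), and -0.15 to 0.28 on leaving out 1 mouse. Ppargc1a was not called at any time point under ctrl. At ZT12 it measured 10.9, 11.1, 13.5 and 22.5 CPM in WT against 5.92, 6.38, 8.37 and 12.2 in GR LKO. GR LKO replicate 4 fell among the WT mice, and the log2 fold change was -0.82 ± 0.30 (SE, edgeR adjusted p = 0.277), and -1.08 to -0.53 on leaving out 1 mouse. Fbp1 was above WT at all 6 time points, with log2 fold changes from 0.04 to 0.35 and adjusted p of 0.264 or more, the lowest of these, at ZT12, running from -0.02 to 0.10 on leaving out 1 mouse. Crtc2 measured 40.1, 37.2, 38.5 and 39 CPM in WT against 41.6, 37.9, 39.1 and 37.7 in GR LKO at ZT12. Over the 6 time points its log2 fold changes ran from -0.05 to 0.10. Sik1 had log2 fold changes from -0.53 to 0.20 and adjusted p of 0.603 or more.

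The interaction asked whether the genotype difference itself differed between cal. res. and ctrl. at a time point, and it uses the same libraries as the genotype comparisons of both diets. edgeR called 0 members at each of the 6 time points, where it called 0%, 0%, 0.081%, 1.01%, 0.234% and 0% of all genes from ZT0 to ZT20. The number of members with an unadjusted p under 0.05 was 2, 2, 2, 5, 2 and 0 in the same order, beside 10.2%, 6.03%, 8.45%, 14.2%, 10.5% and 6.97% of all genes. DESeq2 called 1, 0, 0, 2, 1 and 0 members, and 3.59%, 0.293%, 1.1%, 4.79%, 1.43% and 0.349% of the genes to which it gave an adjusted p. The lowest adjusted p of any member was that of G6pc at ZT16, where the difference in log2 fold change was 1.43 ± 0.27 (SE, edgeR adjusted p = 0.0654). Under cal. res. G6pc measured 378, 437 and 374 CPM in WT against 452, 460.1 and 693 in GR LKO at that time, so GR LKO lay above WT there and below WT under ctrl. At ZT0 the interaction for Pcx was -1.58 ± 0.38 (SE, edgeR adjusted p = 0.340). At ZT12 it was -1.0 ± 0.34 (SE, edgeR adjusted p = 0.201) for Pcx, 0.47 ± 0.14 (SE, edgeR adjusted p = 0.132) for Fbp1, -0.37 ± 0.12 (SE, edgeR adjusted p = 0.161) for Slc37a4 and 0.60 ± 0.26 (SE, edgeR adjusted p = 0.326) for Pck1. At ZT12 the count of members was 1 without ctrl. WT replicate 4 or ctrl. GR LKO replicate 1. Without the library with pancreas RNA the count was 0 at both ZT12 and ZT16, where 0.611% and 0.179% of all genes tested were called. A genotype difference past the threshold under 1 diet and not under the other is thus not shown to differ between diets for any member by edgeR.

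Food was given at ZT12, and the next sampling at ZT16 shows the members afterwards, as a comparison of different mice. In WT under cal. res. 7 of 8 members fell from ZT12 to ZT16, where 40% of the 11768 genes tested were called in either direction. Pck1 went from 7235, 7323 and 7826 CPM to 640.1, 572 and 237 CPM. Every mouse at ZT16 was far below every mouse at ZT12, and the log2 fold change was -3.94 ± 0.36 (SE, edgeR adjusted p = 3.5e-04). Ppargc1a went from 52.4, 71.6 and 65.9 to 9.80, 7.98 and 11.9 CPM, a log2 fold change of -2.66 ± 0.18 (SE, edgeR adjusted p = 1.5e-04). Pcx went from 131, 140.3 and 124 to 57.9, 60.2 and 62.4 CPM, with a log2 fold change of -1.11 ± 0.08 (SE, edgeR adjusted p = 2.0e-04). Crtc2 went from 49.9, 39.3 and 47.9 to 23.5, 26.0 and 23.1 CPM, with a log2 fold change of -0.90 ± 0.11 (SE, edgeR adjusted p = 9.8e-04). For each of these members every mouse at ZT16 lay below every mouse at ZT12, and the share of all genes without overlap is not given. Fbp1 measured 1233, 1209.8 and 1177 CPM at ZT16 and was the member not called, at a log2 fold change of 0.04 ± 0.07 (SE, edgeR adjusted p = 0.692).

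The other 3 members fell by less certain margins. G6pc went from 598, 1700.2 and 941 to 378, 437 and 374 CPM, a log2 fold change of -1.43 ± 0.34 (SE, edgeR adjusted p = 0.0138). It was -0.95 without ZT12 replicate 2, the highest mouse, and the call was lost on leaving out ZT16 replicate 1 (0.0522) and ZT16 replicate 3 (0.0505), and its p lay between 0.00394 and 0.0823 over 11 alternatives. Sik1 went from 43.3, 124 and 85.4 to 36.8, 31.4 and 31.4 CPM, a log2 fold change of -1.33 ± 0.33 (SE, edgeR adjusted p = 0.0173). Sik1 lost this call without ZT16 replicate 2 (0.0558) and ZT16 replicate 3 (0.0599), and its p lay between 4.2e-05 and 0.0599 over 11 alternatives. Slc37a4 went from 353, 334 and 373 to 289, 276 and 284 CPM, a log2 fold change of -0.31 ± 0.08 (SE, edgeR adjusted p = 0.0185). Slc37a4 lost this call without ZT12 replicate 3 (0.0712) and ZT16 replicate 2 (0.0577), and its p lay between 3.4e-04 and 0.0767 over 11 alternatives. Without ZT12 replicate 3, which held pancreas RNA, 6 members and 29.9% of all genes tested were called. Over the same step Hnf4a, Alb and Apoa1 of the 6 hepatocyte markers measured were called lower, and the others are not described. All 8 Kupffer and myeloid markers were called higher. The part of these markers in the members' values was not tested.

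In GR LKO under cal. res. 4 members fell over this step, where 37.8% of all genes were called. Pck1 went from 5291, 6027 and 6141 to 592, 429.9 and 808 CPM, a log2 fold change of -3.24 ± 0.23 (SE, edgeR adjusted p = 1.2e-04). Ppargc1a went from 37.5, 27.8 and 31.2 to 12.0, 7.48 and 13.2 CPM, with -1.55 ± 0.21 (SE, edgeR adjusted p = 0.00122) on the log2 scale. Sik1 went from 78.7, 73.4 and 89.1 to 34.2, 33.2 and 36.2 CPM, with -1.21 ± 0.10 (SE, edgeR adjusted p = 1.7e-04) on the log2 scale. For each of them the time points did not overlap, and the share of all genes without overlap is not given. Crtc2 was the fourth, at a log2 fold change of -0.58 ± 0.09 (SE, edgeR adjusted p = 0.00199). Pcx was not called, going from 44.1, 83.9 and 62.2 to 92.4, 72.8 and 42.5 CPM with overlap, nor were G6pc, at a log2 fold change of -0.44 ± 0.21 (SE, edgeR adjusted p = 0.147), and Slc37a4, at -0.10 ± 0.13 (SE, edgeR adjusted p = 0.574). On leaving out 1 mouse these 2 values ran from -0.68 to -0.33 and -0.21 to 0.02. The difference of this step between genotypes was not tested, and each step uses the ZT12 and ZT16 libraries of the genotype comparisons above.

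Under ctrl. 3 members fell in WT from ZT12 to ZT16, where 13.4% of all genes were called, and 2 in GR LKO, where 9.06% were called. In WT Pck1 went from 4263, 4349.8, 4520.0 and 4463 to 1011, 2385, 866 and 1657 CPM. All 4 mice at ZT16 were below all 4 at ZT12 but spread over a wider range, and the log2 fold change was -1.57 ± 0.28 (SE, edgeR adjusted p = 0.00943). Ppargc1a went from 10.9, 11.1, 13.5 and 22.5 to 6.24, 5.53, 4.98 and 5.95 CPM, a log2 fold change of -1.35 ± 0.24 (SE, edgeR adjusted p = 0.00816). Crtc2 went from 40.1, 37.2, 38.5 and 39 to 30.7, 27.9, 29.3 and 30.4 CPM, a log2 fold change of -0.39 ± 0.06 (SE, edgeR adjusted p = 0.00458). Without ZT16 replicate 2, which held pancreas RNA, the count in WT was also 3, with 9.88% of all genes called. In GR LKO Pck1 went from 3528, 1934, 2089 and 1665 to 594, 1012 and 494 CPM, a log2 fold change of -1.70 ± 0.32 (SE, edgeR adjusted p = 0.0180). Pck1 lost this call without ZT16 replicate 1 (0.0705) and ZT16 replicate 3 (0.0748), and its p lay between 7.2e-04 and 0.0869 over 12 alternatives. Crtc2 went from 41.6, 37.9, 39.1 and 37.7 to 31.1, 31.1 and 26.1 CPM, a log2 fold change of -0.39 ± 0.09 (SE, edgeR adjusted p = 0.0285). Crtc2 lost this call without ZT12 replicate 1 (0.0796), ZT12 replicate 2 (0.0514), ZT12 replicate 4 (0.0539), ZT16 replicate 1 (0.0627), ZT16 replicate 2 (0.0574) and ZT16 replicate 3 (0.0793), and its p lay between 0.00444 and 0.133 over 12 alternatives. The count in GR LKO was 0 without ZT16 replicate 1 or 3 and 1 without ZT12 replicate 1, 2 or 4 or ZT16 replicate 2.

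A 24 h rhythm was sought with JTK_CYCLE, a rank test for a cosine-like course, in each genotype and diet. Under cal. res. 3 members were called rhythmic in WT, where 21.7% of all genes were, and 3 in GR LKO, where 19.8% were. Under ctrl. 5 members were called in WT, where 27.3% of all genes were, and 4 in GR LKO, where 22.7% were. Slc37a4 was called in all 4 series, with a peak estimated at ZT12 in each, at JTK_CYCLE adjusted p of 8.2e-05 and 0.00177 in WT and GR LKO under cal. res. and 7.2e-04 and 0.00878 under ctrl. Sik1 was called in all 4, peaking at ZT12 under cal. res. and at ZT16 under ctrl. Crtc2 was called in all 4, peaking at ZT8 or, in GR LKO under cal. res., at ZT4. Pck1 was called under ctrl., peaking at ZT12 in WT and GR LKO, with adjusted p of 0.00155 and 0.00878. Under cal. res. its adjusted p was 0.195 in WT and 0.0933 in GR LKO. Fbp1 was called in WT under ctrl., peaking at ZT12, with adjusted p of 0.00640. Where the mice of 1 replicate number were left out at every time point, Slc37a4 was called in 3 of 3 such fits in WT and 1 of 3 in GR LKO under cal. res., and in 4 of 4 in WT and 2 of 4 in GR LKO under ctrl. In the same order of series Sik1 was called in 1, 1, 0 and 0 of these fits and Crtc2 in 0, 0, 0 and 2. Under ctrl. Pck1 was called in 3 of 4 in WT and 2 of 4 in GR LKO, and Fbp1 in 2 of 4 in WT. The counts of members then were 2, 1 and 1 without replicate 1, 2 and 3 in WT under cal. res., and 2, 0 and 0 in GR LKO. The share of all genes was also lower, at 4.18%, 2.20% and 2.17% in WT and 2.18%, 1.64% and 2.07% in GR LKO. Under ctrl. the counts were 2, 1, 3 and 3 without replicate 1, 2, 3 and 4 in WT, where 17.8%, 15.9%, 12.9% and 20% of all genes were called, and 1, 0, 2 and 3 in GR LKO, where 7.45%, 6.57%, 7.62% and 19.4% were. Without the library with pancreas RNA the count was 3 in WT under cal. res., with 19.3% of all genes called, and 3 in WT under ctrl., with 26.0%. The edgeR F test for any difference among time points, which assumes no shape, called 8, 7, 8 and 5 members in WT and GR LKO under cal. res. and WT and GR LKO under ctrl. It called 64.3%, 60.5%, 50% and 42.0% of all genes in the same order. A limma test found 0 members whose rhythm differed between genotypes. Under cal. res. it called 0.652% of all genes, with 0 members and 12.1% of all genes at an unadjusted p under 0.05, and under ctrl. 0.366%, with 4 members and 9.82% of all genes at an unadjusted p under 0.05. An edgeR test of genotype by time called 0 members under either diet, and 5.34% of all genes under cal. res. and 0.60% under ctrl.

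Across the libraries of the time series the members did not all move together. Over the 36 cal. res. libraries Pearson's r of log2 CPM between Pck1 and Ppargc1a was 0.87, and over the 42 ctrl. libraries it was 0.16. Between Pck1 and Slc37a4 it was 0.52 and 0.62, and between Pck1 and Crtc2 0.56 and 0.59. Pck1 and Sik1 gave 0.63 and 0.33. With Pck1, G6pc gave 0.10 and 0.14, Fbp1 0.19 and 0.21, and Pcx 0.26 and 6.6e-04. These values are descriptions over mice of both genotypes and 6 time points, which share library series within a diet.

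The genes whose course was most like each member were sought among 8873 genes over the 78 libraries. Among the genes most like Slc37a4 were Homer2 with r = 0.89 and St3gal5 with 0.88. Pck1 was most like Mepce with r = 0.87, Slc38a2, an amino acid transporter, with 0.84 and Stk35 with 0.84. Crtc2 was most like Selenoo with r = 0.91, Abcg8 with 0.89 and Cbx7 with 0.88. For G6pc the genes were Nfil3, a clock-controlled repressor, with r = 0.79, Ddi2 with 0.76 and Ankrd33b with 0.76. For Ppargc1a they were Susd6 with r = 0.78, Cobll1 with 0.78 and Slc25a32 with 0.76. For Sik1 they were Klf3 with r = 0.78, Slc25a25 with 0.78 and Tor1b with 0.77, and for Fbp1 Nadk with 0.79, BC005537 with 0.78 and Mettl7b with 0.78. Pcx had the weakest likeness, with S100a1 at r = 0.47, Cnnm3 at 0.42 and Phpt1 at 0.42. The values pool both diets after log2 CPM was centred within each diet, since diet cannot be told apart from library series. For the 3 genes of G6pc r was 0.88, 0.81 and 0.82 within cal. res. and 0.45, 0.38 and 0.43 within ctrl., and for the 3 of Ppargc1a it was 0.92, 0.92 and 0.88 within cal. res. and 0.43, 0.48 and 0.46 within ctrl. Without the 2 libraries with pancreas RNA these r values included 0.75 for Ppargc1a and Susd6 and 0.46 for Pcx and S100a1.

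The members belong to a wider pathway, described by a list of 26 other enzymes and carriers, of which 22 were tested, and a list of 42 hormonal regulators. In the diet experiment 11 of these enzymes rose and 8 fell, and 21 regulators rose and 7 fell of 41 tested, where 47.1% of all genes were called. The largest enzyme changes were those of Got1, a transaminase of the malate-aspartate shuttle, at a log2 fold change of 1.75 ± 0.17 (SE, edgeR adjusted p = 4.5e-04), and Tpi1, at -1.18 ± 0.21 (SE, edgeR adjusted p = 0.00405). Aqp9, a glycerol channel, and Gpd1, which joins glycerol to glycolysis, fell by log2 fold changes of -0.85 ± 0.13 (SE, edgeR adjusted p = 0.00191) and -0.81 ± 0.12 (SE, edgeR adjusted p = 0.00184). Among regulators Cry1, a clock repressor, had 2.67 ± 0.12 (SE, edgeR adjusted p = 4.9e-05), Irs2, an adaptor of the insulin receptor, 2.46 ± 0.37 (SE, edgeR adjusted p = 0.00190), and Nr1d1, a clock repressor, -2.13 ± 0.31 (SE, edgeR adjusted p = 0.00169). Nr4a1, an early response gene, had 3.90 ± 1.03 (SE, edgeR adjusted p = 0.0184), and it lost its call without ctrl. replicate 1 (0.0660), ctrl. replicate 2 (0.0630) and ctrl. replicate 3 (0.0608), within 0.00233 to 0.0660 over 6 fits. Its cal. res. mice had 11.9 ± 15.5 CPM (SD, n = 3), and without cal. res. replicate 3 its log2 fold change was 1.91. Without ctrl. replicate 1 the count of enzymes called was 12 in place of 19, and the count of regulators over the 6 fits without 1 library was 24 to 29.

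With corticosterone 3 of 22 enzymes rose and 0 fell, and 10 regulators rose and 3 fell of 39 tested, where 8.11% of all genes were called. Sds, a serine dehydratase, had a log2 fold change of 2.04 ± 0.20 (SE, edgeR adjusted p = 0.00288), Got1 had 1.98 ± 0.33 (SE, edgeR adjusted p = 0.0161) and Ldha 0.46 ± 0.10 (SE, edgeR adjusted p = 0.0317). Got1 lost its call without ctrl. replicate 1 (0.0511), ctrl. replicate 2 (0.0758) and ctrl. replicate 3 (0.0580), within 0.00631 to 0.0758 over 6 fits, and Ldha lost it without ctrl. replicate 1 (0.108), ctrl. replicate 2 (0.119), ctrl. replicate 3 (0.0937), corticosterone replicate 1 (0.0515) and corticosterone replicate 3 (0.0945), within 0.0417 to 0.119 over 6 fits. Among regulators Cebpb, a transcription factor induced by cyclic AMP and glucocorticoids, had 2.04 ± 0.16 (SE, edgeR adjusted p = 0.00128) and Foxo1, a transcription factor held back by insulin, had 1.29 ± 0.13 (SE, edgeR adjusted p = 0.00303). Pde4b, which degrades cyclic AMP, had -1.93 ± 0.40 (SE, edgeR adjusted p = 0.0308) and Ppargc1b 1.23 ± 0.22 (SE, edgeR adjusted p = 0.0196). Pde4b lost its call without ctrl. replicate 1 (0.0812), ctrl. replicate 2 (0.0898), ctrl. replicate 3 (0.101), corticosterone replicate 1 (0.0550) and corticosterone replicate 3 (0.0995), within 0.00710 to 0.101 over 6 fits, and Ppargc1b lost it without ctrl. replicate 1 (0.0576), ctrl. replicate 2 (0.0845), ctrl. replicate 3 (0.0613) and corticosterone replicate 3 (0.0571), within 0.0308 to 0.0845 over 6 fits. The count of enzymes was 1 without ctrl. replicate 1, 2 or 3, and the count of regulators was 3 without ctrl. replicate 2, 5 without ctrl. replicate 3, and 7 without corticosterone replicate 1 or 3.

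In GR LKO against WT at ZT12 under cal. res. 1 enzyme was higher and 5 were lower of 22 tested, and 9 regulators were higher and 9 lower of 40 tested, where 15.3% of all genes were called. Got1 had a log2 fold change of -1.84 ± 0.25 (SE, edgeR adjusted p = 0.00445), Sds -1.11 ± 0.22 (SE, edgeR adjusted p = 0.0168), Aqp9 0.47 ± 0.08 (SE, edgeR adjusted p = 0.0117) and Pgk1 -0.42 ± 0.10 (SE, edgeR adjusted p = 0.0361). Sds lost its call without WT replicate 3 (0.0507), GR LKO replicate 1 (0.0587) and GR LKO replicate 3 (0.0642), within 0.0147 to 0.0642 over 6 fits, Aqp9 lost it without WT replicate 3 (0.0538), within 0.0168 to 0.0538 over 6 fits, and Pgk1 lost it without WT replicate 1 (0.0761), WT replicate 3 (0.0963), GR LKO replicate 1 (0.0913), GR LKO replicate 2 (0.0783) and GR LKO replicate 3 (0.101), within 0.0283 to 0.101 over 6 fits. The cyclic AMP phosphodiesterases Pde4b and Pde4d had 1.44 ± 0.18 (SE, edgeR adjusted p = 0.00293) and 1.36 ± 0.19 (SE, edgeR adjusted p = 0.00475). Nr4a1 had 1.83 ± 0.32 (SE, edgeR adjusted p = 0.0113) and Cebpa 1.33 ± 0.10 (SE, edgeR adjusted p = 5.1e-04). The count of enzymes was 3 without WT replicate 1, 1 without WT replicate 3, and 2 without GR LKO replicate 1 or 3. At ZT12 under ctrl., where 2.08% of all genes were called, Sds was the 1 enzyme of 22 called, at -1.16 ± 0.11 (SE, edgeR adjusted p = 0.00133). Of 38 regulators 1 was higher, Adcy6 at 0.82 ± 0.15 (SE, edgeR adjusted p = 0.0252), and 3 were lower, Foxo1 at -0.59 ± 0.10 (SE, edgeR adjusted p = 0.0154), Klf15 at -0.52 ± 0.10 (SE, edgeR adjusted p = 0.0276) and Hnf4a at -0.48 ± 0.09 (SE, edgeR adjusted p = 0.0370). Adcy6 lost its call without WT replicate 1 (0.0626), WT replicate 4 (0.0561), GR LKO replicate 1 (0.0766), GR LKO replicate 3 (0.0663) and GR LKO replicate 4 (0.0705), within 0.0188 to 0.0766 over 8 fits. Foxo1 lost it without GR LKO replicate 2 (0.0522), within 0.0197 to 0.0522 over 8 fits. Klf15 lost it without WT replicate 2 (0.0518), WT replicate 4 (0.0582), GR LKO replicate 2 (0.0821), GR LKO replicate 3 (0.0675) and GR LKO replicate 4 (0.0819), within 0.0340 to 0.0821 over 8 fits, and Hnf4a, which is also 1 of the hepatocyte markers, lost it without WT replicate 2 (0.111), WT replicate 3 (0.107), WT replicate 4 (0.0746), GR LKO replicate 1 (0.107), GR LKO replicate 2 (0.0833) and GR LKO replicate 3 (0.0743), within 0.0341 to 0.111 over 8 fits. The count of these regulators over the 8 fits without 1 library was 1 to 4. It was 1 without WT replicate 4 or GR LKO replicate 2 or 3 and 2 without WT replicate 2 or GR LKO replicate 1 or 4.

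In the other 10 genotype comparisons, where 0.195% to 4.54% of all genes were called, at most 1 enzyme and at most 4 regulators were called. Under cal. res. the enzymes were Aldoa at ZT4 with a log2 fold change of -0.52 ± 0.07 (SE, edgeR adjusted p = 0.0357), Slc2a2, the glucose carrier of the hepatocyte membrane, at ZT16 with -0.41 ± 0.09 (SE, edgeR adjusted p = 0.0493), and Sds at ZT20 with -0.58 ± 0.10 (SE, edgeR adjusted p = 0.0494). Aldoa lost its call without WT replicate 1 (0.0792), WT replicate 2 (0.120), GR LKO replicate 1 (0.0954), GR LKO replicate 2 (0.171) and GR LKO replicate 3 (0.116), within 0.0440 to 0.171 over 6 fits. Slc2a2 lost it without WT replicate 1 (0.115), WT replicate 2 (0.132), WT replicate 3 (0.0815), GR LKO replicate 1 (0.0975), GR LKO replicate 2 (0.125) and GR LKO replicate 3 (0.138), within 0.0815 to 0.138 over 6 fits, and Sds on leaving out WT replicate 1 (0.202), WT replicate 2 (0.0715), WT replicate 3 (0.175), GR LKO replicate 1 (0.0841), GR LKO replicate 2 (0.125) and GR LKO replicate 3 (0.0647), within 0.0647 to 0.202 over 6 fits. Under ctrl. Gpd1 was called at ZT8 with 0.34 ± 0.05 (SE, edgeR adjusted p = 0.0126), and it lost its call without WT replicate 1 (0.0515), WT replicate 2 (0.0531) and WT replicate 3 (0.0550), within 0.0121 to 0.0550 over 8 fits. Of the regulators under cal. res. at ZT8, Pde4b had 0.97 ± 0.09 (SE, edgeR adjusted p = 0.00326), Pde4d 1.08 ± 0.15 (SE, edgeR adjusted p = 0.0170), Adcy6 0.85 ± 0.11 (SE, edgeR adjusted p = 0.0125) and Cebpb -0.75 ± 0.11 (SE, edgeR adjusted p = 0.0170). Pde4d lost its call without WT replicate 3 (0.0509), GR LKO replicate 1 (0.0809), GR LKO replicate 2 (0.0792) and GR LKO replicate 3 (0.0753), within 0.0215 to 0.0809 over 6 fits, Adcy6 lost it without GR LKO replicate 3 (0.0533), within 0.0301 to 0.0533 over 6 fits, and Cebpb lost it without WT replicate 3 (0.0620), GR LKO replicate 1 (0.0864) and GR LKO replicate 3 (0.0681), within 0.0381 to 0.0864 over 6 fits. The count of regulators at ZT8 was 1 without GR LKO replicate 3, and it was 2 without either WT replicate 3 or GR LKO replicate 1.

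At ZT16 under cal. res. Pde4b had 0.49 ± 0.11 (SE, edgeR adjusted p = 0.0472) and Prkaca, a catalytic subunit of protein kinase A, had 0.43 ± 0.08 (SE, edgeR adjusted p = 0.0268). Pde4b lost its call without WT replicate 1 (0.140), WT replicate 2 (0.0772), WT replicate 3 (0.111), GR LKO replicate 1 (0.102), GR LKO replicate 2 (0.0823) and GR LKO replicate 3 (0.145), within 0.0772 to 0.145 over 6 fits, and Prkaca lost it without WT replicate 1 (0.0874), WT replicate 2 (0.0815), WT replicate 3 (0.0853), GR LKO replicate 2 (0.0871) and GR LKO replicate 3 (0.0954), within 0.0434 to 0.0954 over 6 fits. The count of regulators there was 0 without any of the 3 WT mice or GR LKO replicate 2 or 3, and 1 without GR LKO replicate 1. At ZT20 Pde4d had 1.15 ± 0.13 (SE, edgeR adjusted p = 0.0170), and it lost its call without WT replicate 1 (0.0922), WT replicate 2 (0.0715) and WT replicate 3 (0.0761), within 0.0336 to 0.0922 over 6 fits. Under ctrl. Cry2 was called at ZT0 with 0.71 ± 0.08 (SE, edgeR adjusted p = 0.0337), and it lost its call without WT replicate 1 (0.106), WT replicate 2 (0.114), GR LKO replicate 1 (0.145), GR LKO replicate 2 (0.0901) and GR LKO replicate 3 (0.0994), within 0.0436 to 0.145 over 6 fits. At ZT16 under ctrl. 1 regulator was higher and 3 were lower, Nr0b2 with -1.63 ± 0.32 (SE, edgeR adjusted p = 0.0456), Irs2 with -1.28 ± 0.23 (SE, edgeR adjusted p = 0.0348) and Cry1 with -0.59 ± 0.10 (SE, edgeR adjusted p = 0.0260). Nr0b2 lost its call without WT replicate 1 (0.0800), WT replicate 2 (0.0749), WT replicate 3 (0.0748), WT replicate 4 (0.0815), GR LKO replicate 2 (0.156) and GR LKO replicate 3 (0.107), within 0.0329 to 0.156 over 7 fits, Irs2 lost it without WT replicate 2 (0.0897), WT replicate 3 (0.0618), WT replicate 4 (0.0844), GR LKO replicate 2 (0.109) and GR LKO replicate 3 (0.11), within 0.0294 to 0.11 over 7 fits, and Cry1 lost it without WT replicate 1 (0.0527), WT replicate 2 (0.0744), WT replicate 4 (0.0700), GR LKO replicate 2 (0.0850) and GR LKO replicate 3 (0.0643), within 0.0248 to 0.0850 over 7 fits. The count of regulators at ZT16 was 0 without WT replicate 2 or 4 or GR LKO replicate 3, 1 without WT replicate 1 or GR LKO replicate 2, and 2 without WT replicate 3.

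Over the step from ZT12 to ZT16 under cal. res. 4 enzymes were higher and 7 lower in WT, and 3 higher and 6 lower in GR LKO. Of the regulators 2 were higher and 21 lower of 39 tested in WT, and 2 higher and 24 lower of 40 tested in GR LKO. Of all genes 40% were called in WT and 37.8% in GR LKO. In WT Sds went by -2.70 ± 0.33 (SE, edgeR adjusted p = 0.00101), Got1 by -2.27 ± 0.23 (SE, edgeR adjusted p = 4.7e-04), Tpi1 by 2.50 ± 0.33 (SE, edgeR adjusted p = 0.00134) and Gpd1 by 1.11 ± 0.24 (SE, edgeR adjusted p = 0.00943) on the log2 scale. Among regulators Nr1d1 went by -3.81 ± 0.17 (SE, edgeR adjusted p = 4.4e-05), Irs2 by -1.80 ± 0.30 (SE, edgeR adjusted p = 0.00332), Cebpb by -1.71 ± 0.24 (SE, edgeR adjusted p = 0.00166) and Foxo1 by -1.67 ± 0.11 (SE, edgeR adjusted p = 1.6e-04). In GR LKO the enzymes with the largest changes were Sds with -2.14 ± 0.21 (SE, edgeR adjusted p = 3.5e-04), Tpi1 with 1.88 ± 0.16 (SE, edgeR adjusted p = 2.0e-04), Got1 with -1.22 ± 0.24 (SE, edgeR adjusted p = 0.00565) and Slc2a2 with -1.04 ± 0.08 (SE, edgeR adjusted p = 1.3e-04). The regulators were Nr1d1 with -4.37 ± 0.23 (SE, edgeR adjusted p = 4.3e-05), Nr4a1 with -3.77 ± 0.75 (SE, edgeR adjusted p = 0.00630), Irs2 with -2.62 ± 0.10 (SE, edgeR adjusted p = 2.0e-05) and Adcy6 with -1.61 ± 0.16 (SE, edgeR adjusted p = 3.1e-04). None of the genes named for this step under cal. res. lost its call in any fit without 1 library.

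Over the same step under ctrl., where 13.4% of all genes were called in WT and 9.06% in GR LKO, 1 enzyme was higher and 4 were lower of 22 tested in WT, and 0 higher and 3 lower in GR LKO, while 4 regulators were higher and 6 lower of 38 tested in WT and 1 higher and 7 lower of 39 tested in GR LKO. In WT Sds had -1.24 ± 0.12 (SE, edgeR adjusted p = 0.00154), Aqp9 -0.56 ± 0.09 (SE, edgeR adjusted p = 0.00660), Tpi1 0.87 ± 0.24 (SE, edgeR adjusted p = 0.0433) and Aldoa -0.46 ± 0.10 (SE, edgeR adjusted p = 0.0207). Tpi1 lost its call without ZT12 replicate 1 (0.0582), ZT12 replicate 2 (0.0901), ZT12 replicate 3 (0.0589), ZT16 replicate 1 (0.0966), ZT16 replicate 3 (0.103) and ZT16 replicate 4 (0.0709), within 0.0464 to 0.103 over 8 fits, and Aldoa lost it without ZT12 replicate 3 (0.0547), ZT12 replicate 4 (0.0509), ZT16 replicate 2 (0.0540) and ZT16 replicate 4 (0.0618), within 0.0202 to 0.0618 over 8 fits. Of the regulators Nr1d1 had -1.77 ± 0.22 (SE, edgeR adjusted p = 0.00225), Trib3 -1.46 ± 0.31 (SE, edgeR adjusted p = 0.0165), Cry1 1.28 ± 0.14 (SE, edgeR adjusted p = 0.00187) and Ppargc1b -1.03 ± 0.19 (SE, edgeR adjusted p = 0.00943). The count of enzymes in WT was 2 without ZT16 replicate 4 and 3 without ZT12 replicate 1, 2, 3 or 4 or ZT16 replicate 2 or 3, and the count of regulators was 6 without ZT16 replicate 4. In GR LKO Aqp9 had -0.55 ± 0.10 (SE, edgeR adjusted p = 0.0167), Slc2a2 -0.55 ± 0.13 (SE, edgeR adjusted p = 0.0374) and Got1 -0.53 ± 0.12 (SE, edgeR adjusted p = 0.0360). Aqp9 lost its call without ZT16 replicate 1 (0.0575) and ZT16 replicate 3 (0.0535), within 0.0202 to 0.0575 over 7 fits, Slc2a2 lost it without ZT12 replicate 1 (0.0682), ZT12 replicate 3 (0.0617), ZT12 replicate 4 (0.0698), ZT16 replicate 1 (0.0901), ZT16 replicate 2 (0.115) and ZT16 replicate 3 (0.0943), within 0.0228 to 0.115 over 7 fits, and Got1 lost it without ZT12 replicate 1 (0.0790), ZT12 replicate 4 (0.0669), ZT16 replicate 1 (0.118), ZT16 replicate 2 (0.0560) and ZT16 replicate 3 (0.105), within 0.0332 to 0.118 over 7 fits. Trib3 had -2.34 ± 0.20 (SE, edgeR adjusted p = 0.00164), Nr1d1 -2.32 ± 0.26 (SE, edgeR adjusted p = 0.00328), Irs2 -2.20 ± 0.39 (SE, edgeR adjusted p = 0.0139) and Cry1 1.09 ± 0.14 (SE, edgeR adjusted p = 0.00464), and Irs2 lost its call without ZT16 replicate 2 (0.0560) and ZT16 replicate 3 (0.0668), within 0.0101 to 0.0668 over 7 fits. The count of enzymes in GR LKO was 0 without ZT16 replicate 1 or 3 and 1 without ZT12 replicate 1, and that of regulators was 5 without ZT16 replicate 3.

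On the mouse genome the members lie on 8 chromosomes (build mm10): Pcx at chr19:4510472-4621752, Pck1 at chr2:173153048-173159273, Fbp1 at chr13:62864753-62888282, G6pc at chr11:101367561-101377903, Slc37a4 at chr9:44396852-44402968, Ppargc1a at chr5:51454250-51567726, Crtc2 at chr3:90254163-90264125 and Sik1 at chr17:31844250-31855804. Promoter sequence from RefSeq (GRCm38.p6) was at hand for 6 of the 8 members, with 9 start sites, and not for Sik1 and Crtc2. The 250 bases before each start were searched on both strands for 5 motifs: TGACGTCA, the full cyclic AMP response element bound by CREB; TGACG, a shorter form that lies within it; AGAACA, part of the element bound by GR; GTAAACA, bound by forkhead factors; and CAAAACA, a motif of insulin response units. Over all 32851 promoters of this length the share with a match was 1.55%, 17.8%, 16.1%, 3.17% and 5.56% in that order. TGACG was found at -90 before the Pck1 start on the minus strand, at -49 before the Ppargc1a start on the minus strand, and for Slc37a4 at -61 on the plus strand of one start and at -214 on the plus and -82 on the minus strand of another. The windows of these Slc37a4 starts overlap, and -61 and -214 mark the same bases. CAAAACA was found at -174 before the G6pc start on the minus strand. These positions count from the RefSeq starts. For Pck1, G6pc, Ppargc1a, Slc37a4 and the later start of Pcx, these lie inside the gene models given above. Part or all of the bases searched for them therefore lies there too, and so do the Slc37a4 matches. No motif was found for Fbp1 and Pcx, and TGACGTCA, AGAACA and GTAAACA were in none of the 9 windows.

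The promoters of Pck1, G6pc and Ppargc1a are printed because their rise in the diet experiment held in every fit without 1 library and their sequence was at hand. They run 5′ to 3′ on the strand of the gene and stop at the base before the gene model, so 225, 95 and 249 of the 250 bases are shown and the positions above cannot be counted from their ends. The Pck1 stretch is chr2:173152823-173153047 on the plus strand, that of G6pc is chr11:101367466-101367560 on the plus strand, and that of Ppargc1a is chr5:51567727-51567975 on the minus strand. Capitals mark CGTCA, the reverse complement of TGACG, in Pck1 and Ppargc1a, and TGTTTTG, the reverse complement of CAAAACA, in G6pc. A match describes the letters and says nothing of binding.
Pck1: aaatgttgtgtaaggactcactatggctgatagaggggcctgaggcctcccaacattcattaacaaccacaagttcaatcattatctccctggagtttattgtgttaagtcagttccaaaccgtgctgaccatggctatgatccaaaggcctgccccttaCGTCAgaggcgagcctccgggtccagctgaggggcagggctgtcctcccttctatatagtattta
G6pc: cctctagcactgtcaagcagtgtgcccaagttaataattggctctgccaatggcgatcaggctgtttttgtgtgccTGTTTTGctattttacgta
Ppargc1a: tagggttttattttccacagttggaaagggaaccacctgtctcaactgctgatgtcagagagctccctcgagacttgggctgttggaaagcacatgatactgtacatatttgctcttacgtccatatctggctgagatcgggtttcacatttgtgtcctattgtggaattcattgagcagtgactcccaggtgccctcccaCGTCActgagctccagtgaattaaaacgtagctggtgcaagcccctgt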

How the data were processed

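RNA of mouse liver was sequenced, and the authors deposited gene-level estimated counts from Salmon 1.8.0 and tximport 1.18.0 in 4 tables, after FastQC 0.11.9 and MultiQC 1.12. By the submitters' processing notes the genome build was mm10, and the transcript annotation is not given in the sources used here. The authors' fits used DESeq2 1.30, and a deposited table of 6 columns of variance-stabilized values was not used. Counts were rounded to whole numbers, and 27244 of 27654 gene IDs were matched to symbols.

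Libraries were grouped by genotype, diet, time and agent. In R 4.3.3, edgeR 4.0.16 was fitted to each comparison with TMM scaling, filterByExpr with a minimum count of 10, and quasi-likelihood F tests, with Benjamini-Hochberg adjustment over all genes and a threshold of 0.05. CPM used a prior count of 2 on the log2 scale. JTK_CYCLE with exact null distributions and a 24 h period ran on variance-stabilized values, and limma 3.58.1 compared cosine and sine terms between genotypes. Alternatives were DESeq2 1.42.0, RLE size factors, no filter on low counts, 1 fit of all libraries of a diet, replicate number as a block, log2 CPM in place of variance-stabilized values, an amplitude over 0.1, the WT libraries of the time series at ZT12, and leaving out 1 library. In the rhythm fits all mice of 1 replicate number were left out at once, and the libraries with pancreas RNA were also left out singly. The pipeline was tested on simulated data. Replicates were checked for copies: in 102 pairs none were identical, and the lowest chi-square per degree of freedom was 10.4. Python 3.11.15 with pandas 2.3.3, numpy 2.4.6 and matplotlib 3.10.9 made the tables and plots.

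All 8 members were tested in every comparison. Every member called between groups is named, and those not called are not all named. From the lists of pathway enzymes and hormonal regulators, up to 4 genes per list are named. These have the largest absolute log2 fold change among those called, with at least 5 CPM in 1 group and no overlap between mice. For likeness, the genes named are from the 3 with the highest Pearson's r for each member, among genes with a mean of at least 5 CPM. Log2 CPM was centred within each diet for this. The members and lists were chosen with earlier results of these data known.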

Additional observations from a re-analysis of the deposited data

Results flagged for a closer look

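In groups of 4 mice, the gap of the highest or lowest mouse to its nearest neighbour was compared with the range of the group, with a critical ratio of 0.829. Chance marks about 1 in 20 groups, 2.4 of the 48 groups tested, and 2 were marked. Fbp1 measured 1284 CPM in WT replicate 1 of ctrl. at ZT16, far above the other 3 mice at 1195, 1188 and 1202 CPM. Pcx measured 91.2 CPM in WT replicate 4 of ctrl. at ZT12, far above the other 3 mice at 47.3, 42.9 and 48.7 CPM. No cause was tested for either.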

How the results depend on the processing

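For the 38 member results called at a single comparison, 429 alternative values were computed: 353 kept direction and call, 76 kept the direction but lost the call, and 0 changed direction. DESeq2 and RLE size factors each kept all 38 calls, no filter on low counts kept 37, and 1 fit of all libraries of a diet kept 24 and lost 5. In the diet experiment the WT libraries of the time series at ZT12 kept 5 calls and lost 1. Of the 38 calls, 20 held in every fit without 1 library.

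With DESeq2 the number of members called between genotypes was 14 under cal. res. in place of 8 and 9 under ctrl. in place of 5, and the interaction gave 4 in place of 0. Over all genes and time points it called 6.59% in place of 4.12%, 3.14% in place of 1.1% and 1.57% in place of 0.218%. For the rhythm, the edgeR F test of time called 8 members in WT under cal. res. in place of 3, 7 in GR LKO under cal. res. in place of 3, and 8 in WT under ctrl. in place of 5, while the share of all genes called was 64.3% in place of 21.7%, 60.5% in place of 19.8% and 50% in place of 27.3%. With replicate number as a replicate block, 28 of the 38 calls held, and the number of members was 5 between genotypes under cal. res., 3 under ctrl., and 0 for the step from ZT12 to ZT16 in GR LKO under ctrl. in place of 2. The share of all genes called under the block is not given, so these counts are not read as particular to the members. Replicate numbers do not mark pairs: in 0 of 18 comparisons were all correlations of mice with the same number above 0.1, and single correlations ran from -0.123 to 0.114.

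Without 1 library the number of members called ran from 4 to 5 for diet, from 1 to 3 for corticosterone, from 5 to 9 between genotypes under cal. res., from 3 to 6 under ctrl., and from 0 to 1 for the interaction. For the step from ZT12 to ZT16 it ran from 5 to 7 in WT and 4 to 5 in GR LKO under cal. res., stayed at 3 in WT under ctrl., and ran from 0 to 2 in GR LKO under ctrl. For the rhythm, all mice of 1 replicate number were left out at once, or in WT the library with pancreas RNA. The number of members then ran from 1 to 3 in WT and 0 to 2 in GR LKO under cal. res. Under ctrl. it ran from 1 to 3 in WT and 0 to 3 in GR LKO. The rhythm difference between genotypes gave 0 members under every alternative run, edgeR included. The rhythm fits and the likeness values without the libraries with pancreas RNA were added after seeing the data; without WT replicate 2 of ZT16 the rhythm count in WT under ctrl. was 3. In the edgeR fits without a library with pancreas RNA the share of all genes called was also lower. Between genotypes at ZT12 under cal. res. it was 8.59% in place of 15.3%. For the other edgeR fits without 1 library that share is not given, so their counts are not read as particular to the members. The cause of these differences in count was not tested.

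Groups held 3 or 4 mice, and small differences were not detectable at this number. Each value rests on the authors' estimated counts, whose uncertainty is not in the files. Genotype is compared in different mice at each time point, and diet and library series cannot be told apart in the time series.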
